A study of Mus musculus with 12 samples.

Results

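Epithelial-mesenchymal transition (EMT) factors and markers were followed as 10 genes, taken by their symbols, out of 54532 genes in the expression table. They were the transcription factor genes Snai1, Snai2, Zeb1, Zeb2, Twist1 and Twist2, the cadherin genes Cdh1 and Cdh2, and the marker genes Vim and Fn1. All 10 were found. RNA was sequenced from hyperplastic mammary gland of female FVB/N mice of the MIC model. In this model, as generally described, a doxycycline-responsive transactivator under the MMTV promoter switches on polyoma virus middle T antigen together with Cre recombinase in mammary epithelial cells, so that the oncogene and any deletion by this Cre share 1 cell type. The 3 genotypes, with 4 libraries each, were MIC WT as control, MIC Stat3 ko, and MIC Chi3l1 ko. Every group received 2 mg/ml doxycycline and carries the time 2 wk in its titles, and so WT here means the oncogene-bearing control, not a normal gland. The alleles, whether each knockout depends on Cre, and the age of the animals are not given in the labels. Libraries are numbered 1 to 4 in each group only to name them.

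In EMT, epithelial cells loosen their junctions, lose apical-basal polarity and take on migratory, mesenchymal features. The SNAI, ZEB and TWIST factors are its classic inducers, and SNAI and ZEB proteins repress Cdh1 through E-box sequences in its promoter. In a whole mammary gland the mesenchymal genes are also expressed by fibroblasts, endothelial cells, pericytes, fat tissue and leukocytes, while Cdh1 belongs to the epithelium.

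The libraries held 16217143 to 22607123 gene counts (median 17861400). Mitochondrially encoded genes took 1.002% to 4.79% of counts, with 3 libraries over 2%: Stat3 ko 1 (4.79%), Stat3 ko 2 (3.37%) and Chi3l1 ko 2 (2.22%). The labelled tissue showed epithelial transcripts in every library: Krt8, a simple-epithelium keratin, stood at 577 to 934 FPKM (fragments per kilobase of gene, scaled to the size of the library) in WT, 300.09 to 796 in Stat3 ko and 541 to 743 in Chi3l1 ko. Stat3 itself stood at 46.2 to 49.7 FPKM in WT and 12.2 to 18.7 in Stat3 ko, a mean of 32.9% of WT. Chil1, the mouse symbol for Chi3l1, had 5734 to 13318 counts in the WT libraries and 1, 2, 0 and 0 counts in the Chi3l1 ko libraries. Stat3 ko was also low in Chil1, at 249 to 823 counts and a mean FPKM of 7.76% of WT. Its log2 fold change of Stat3 ko against WT was -3.65 (limma adjusted p = 6.93e-05). Each targeted gene separated its knockout from WT without overlap (exact two-sided permutation test, p = 0.0286, the smallest that 4 against 4 allows).

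The promoters of 3 factor genes are shown because the estimates of Zeb2, which was called, and of Twist1, which was not, were above 0 for Stat3 ko against WT and that of Snai1, also not called, was below 0. RefSeq promoter entries were matched for 5 of the 10 genes. Each line gives the 250 bases before the annotated start on GRCm38.p6, with any CAGGTG, the E-box letters read by SNAI and ZEB factors, in capitals (CACCTG on the opposite strand). The windows are chr2:167537945-167538194 (plus strand) for Snai1, chr12:33957421-33957670 (plus strand) for Twist1 and chr2:45117443-45117692 (minus strand) for Zeb2.
Snai1: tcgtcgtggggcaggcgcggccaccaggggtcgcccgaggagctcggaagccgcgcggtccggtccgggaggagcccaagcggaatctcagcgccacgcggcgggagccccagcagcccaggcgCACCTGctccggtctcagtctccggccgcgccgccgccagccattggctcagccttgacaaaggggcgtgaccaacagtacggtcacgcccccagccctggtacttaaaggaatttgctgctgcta
Twist1: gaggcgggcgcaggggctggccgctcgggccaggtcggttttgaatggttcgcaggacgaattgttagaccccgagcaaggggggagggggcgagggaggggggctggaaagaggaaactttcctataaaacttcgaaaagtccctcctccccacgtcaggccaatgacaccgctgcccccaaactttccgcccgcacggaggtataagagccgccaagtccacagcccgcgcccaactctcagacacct
Zeb2: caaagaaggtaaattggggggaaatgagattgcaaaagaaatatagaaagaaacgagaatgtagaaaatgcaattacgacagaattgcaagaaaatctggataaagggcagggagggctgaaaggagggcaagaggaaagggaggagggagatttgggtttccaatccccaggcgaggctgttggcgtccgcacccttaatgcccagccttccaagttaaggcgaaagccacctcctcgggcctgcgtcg
The Snai1 window held CACCTG starting 126 bases before the start site, and the Twist1 and Zeb2 windows held it on neither strand. Of the 8 windows of the 5 matched genes, 1 held this motif. Among 32536 distinct windows of the same length, with no chromosome left out, 17.3% held it. The STAT motif TTCNNNGAA, searched on both strands, was in 2 of the 8, both overlapping windows of later Zeb2 starts, against 7.04% of all windows. Both motifs can occur without being bound.

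Stat3 ko glands carried more RNA of the mesenchymal marker Vim and of the ZEB factors than WT glands, with 2.70 times the mean level of Vim, 4.02 times that of Zeb1 and 2.67 times that of Zeb2. Snai1 stood lower, at 56.5% of the WT mean, and Cdh1 at 66.4%, and neither passed the test. Of the 8 genes tested, 3 rose and 0 fell (limma on log2(FPKM + 1), Benjamini-Hochberg adjusted p under 0.05 over 13643 genes), where 14.0% of all tested genes were called, 5.61% as rises and 8.39% as falls. Among all calls 40.1% were rises, and 56.1% were with edgeR on counts recovered from the FPKM. With edgeR on those counts Vim, Zeb1 and Zeb2 were again called, beside 17.3% of all tested genes, and the fit without a filter called Vim and Zeb1, beside 3.67%. The median log2 fold change of the 8 was 0.72, against -0.02 over all tested genes. The other 2, Twist2 and Cdh2, missed the level filter, which asks for 1 FPKM or more in 4 or more of 12 libraries. Zeb1 passed this filter through its Stat3 ko libraries, as described below. The 3 rises and the median of the 8 therefore include a gene whose passing already required a difference. In such bulk samples, fewer cells of a type and less RNA per cell cannot be told apart.

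Vim encodes vimentin, the intermediate filament protein of mesenchymal cells (ENSMUSG00000026728, GRCm38 chromosome 2, 13573927 to 13582826, plus strand). WT libraries held 54.4, 53.5, 70.9 and 42.5 FPKM of Vim, Stat3 ko libraries 259, 117, 114 and 108, and Chi3l1 ko libraries 46.6, 97.3, 48.9 and 52.6. All 4 Stat3 ko libraries were above all 8 others, with Stat3 ko 1 far above the rest. The log2 fold change of Stat3 ko against WT was 1.34 ± 0.31 (SE; limma adjusted p = 0.0202). The call was lost without WT 1 (adjusted p = 0.0605) or WT 4 (0.0629), and narrowly when only the compared groups entered the fit (0.0506). Without Stat3 ko 1 the change was 1.04 (adjusted p = 0.0227).

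Zeb1 and Zeb2 encode paired zinc-finger homeobox repressors of epithelial genes. Zeb1 (ENSMUSG00000024238, chromosome 18, 5591860 to 5775467, plus strand) stood at 0.654, 0.980, 1.09 and 0.524 FPKM in WT, at 4.89, 4.001, 2.51 and 1.64 in Stat3 ko, and at 0.501, 1.95, 0.596 and 0.780 in Chi3l1 ko. Every Stat3 ko library was above every WT library, and only Chi3l1 ko 2 reached into the Stat3 ko range. The log2 fold change against WT was 1.18 ± 0.27 (SE; limma adjusted p = 0.0206). Zeb1 passed the level filter through Stat3 ko, since 1 WT library and 1 Chi3l1 ko library reached 1 FPKM, so that its passing already required a difference. In the fit without the filter its adjusted p was 0.0480. The call was lost without WT 1 (0.0655), WT 4 (0.0616) or Stat3 ko 2 (0.0533). On recovered counts, 103 to 225 in WT and 319 to 836 in Stat3 ko, edgeR gave 2.05 (adjusted p = 0.0211), and without the 3 libraries over 2% mitochondrial counts limma gave 0.76 (adjusted p = 0.0411).

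Zeb2 (ENSMUSG00000026872, chromosome 2, 44983632 to 45117395, minus strand) stood at 0.906, 1.56, 1.74 and 1.29 FPKM in WT, 6.49, 2.78, 2.49 and 2.93 in Stat3 ko, and 1.14, 2.15, 1.41 and 1.30 in Chi3l1 ko. The Stat3 ko libraries again stood above all 8 others, Stat3 ko 1 highest. The log2 fold change against WT was 0.91 ± 0.23 (SE; limma adjusted p = 0.0285), and edgeR gave 1.46 (adjusted p = 0.0204). The call was lost without WT 1 (0.0904) or WT 4 (0.0723), without the filter (0.0647) and in the fit of the compared groups alone (0.0793). Exons of Zeb2 share 653 bases with Zeb2os on the opposite strand, and exons of Zeb1 share 198 with Gm10125. Whether counting used the strand is not given in the sources used here, so reads there cannot be told apart. Those partners reached at most 0.432 and 0.225 FPKM.

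Twist1 encodes a basic helix-loop-helix factor of mesoderm and mesenchyme (ENSMUSG00000035799, chromosome 12, 33957671 to 33959829, plus strand). It stood at 1.99, 3.24, 2.88 and 1.19 FPKM in WT, 20.7, 3.98, 3.80 and 5.20 in Stat3 ko and 1.90, 3.58, 1.39 and 1.14 in Chi3l1 ko. The Stat3 ko libraries lay above all others, the lowest by a narrow margin over Chi3l1 ko 2. The log2 fold change against WT was 1.22 ± 0.45 (SE), which did not pass (limma adjusted p = 0.0848). It was 0.72 without Stat3 ko 1 (adjusted p = 0.117) and 1.90 with edgeR (adjusted p = 0.0544). Its relative Twist2 had 4 to 27 counts in 11 libraries and 144 in Stat3 ko 1, where its level was 2.72 FPKM against at most 0.385 elsewhere. In the fit without a filter the Twist2 change was 0.53 ± 0.30 (SE; limma adjusted p = 0.331).

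Snai1 and Snai2 encode the zinc-finger repressors SNAIL and SLUG. Snai1 (ENSMUSG00000042821, chromosome 2, 167538195 to 167542814, plus strand) was the factor with the opposite sign. Its levels were 5.94, 3.72, 5.52 and 3.16 FPKM in WT, 3.63, 1.78, 2.59 and 2.38 in Stat3 ko and 3.67, 4.66, 4.36 and 5.25 in Chi3l1 ko. Of the Stat3 ko libraries, Stat3 ko 1 lay within the WT range and the other 3 lay under it, while all 4 lay under Chi3l1 ko. The log2 fold change against WT was -0.63 ± 0.19 (SE), just outside the threshold (limma adjusted p = 0.0517). Over the 17 alternatives its adjusted p ran from 0.0262 to 0.145, and it was called in 6 of them, among them the fits without Stat3 ko 1 (-0.76, adjusted p = 0.0269) and without WT 4 (-0.76, adjusted p = 0.0466). Snai2 (chromosome 16, 14705852 to 14709385, plus strand) ran from 1.55 to 2.95 FPKM in WT, with Stat3 ko libraries at 7.48, 1.37, 3.63 and 2.72, so that Stat3 ko held both the highest and the lowest level. Its change against WT was 0.36 ± 0.31 (SE; limma adjusted p = 0.437).

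**Figure D1:**
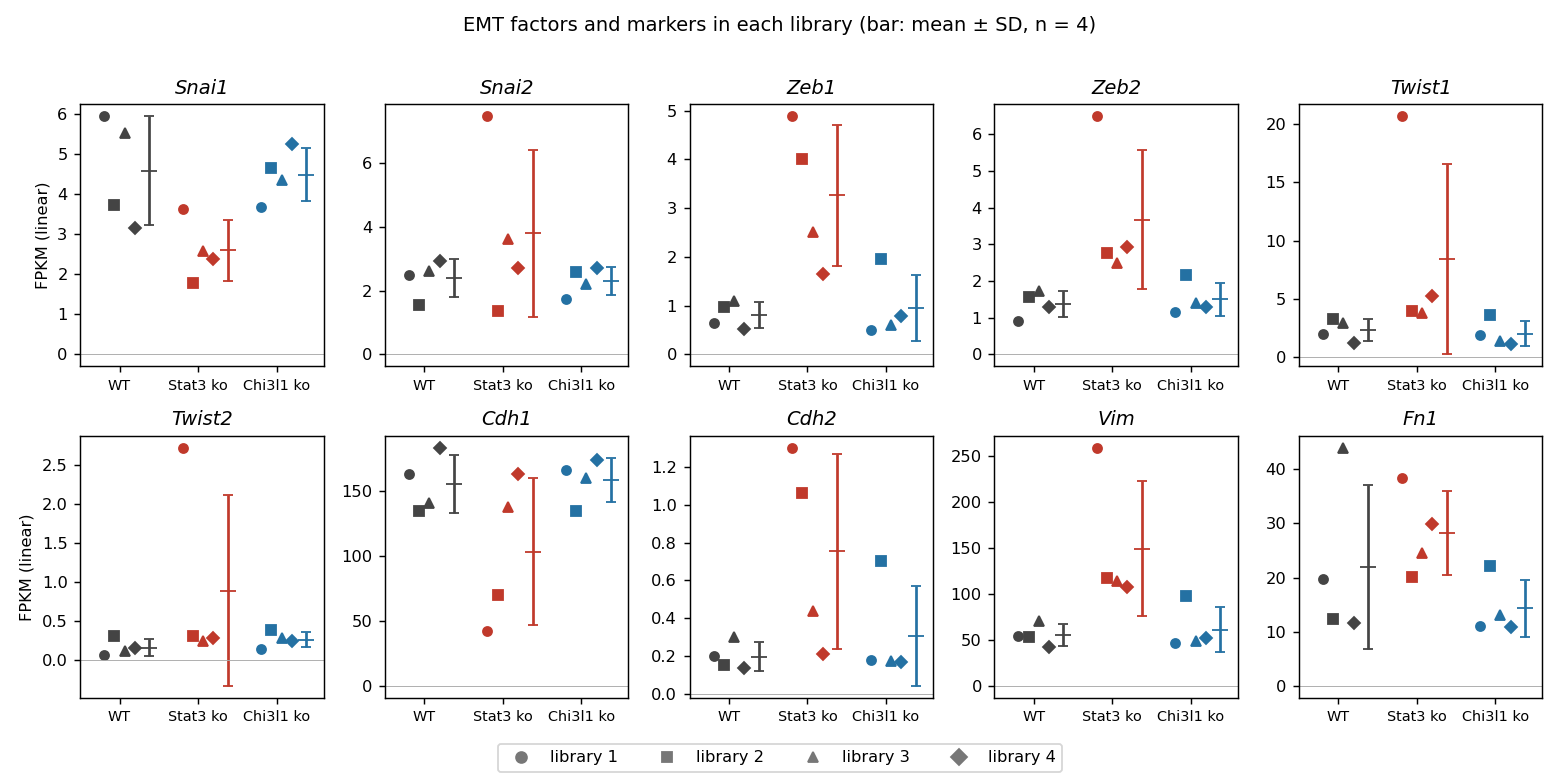
FPKM (linear axes, each with its own scale) of the 10 genes in each of 12 libraries, with mean ± SD of 4 libraries per group beside the points. Vim, Zeb2 and Twist1 are higher in each Stat3 ko library than in every other library, Snai1 is lower in Stat3 ko than in Chi3l1 ko, and Stat3 ko 1 (circle) carries the extreme levels of Twist1 (20.7), Twist2 (2.72) and Vim (259).

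The cadherins differed in level by far more than in response. Cdh1 encodes E-cadherin, the adhesion molecule of epithelial adherens junctions (ENSMUSG00000000303, chromosome 8, 106603351 to 106670246, plus strand). It stood at 163, 134, 141 and 183 FPKM in WT, 42.2, 70.1, 138 and 163 in Stat3 ko and 166, 134, 160 and 174 in Chi3l1 ko. Stat3 ko 1 and 2 were below every WT library, and Stat3 ko 3 and 4 lay inside the WT range. The log2 fold change against WT was -0.76 ± 0.34 (SE; 95% interval -1.52 to -0.01), and it did not pass (limma adjusted p = 0.143). It was -0.04 without the 3 libraries over 2% mitochondrial counts (adjusted p = 0.898), which leaves out those low libraries, and -1.05 without Stat3 ko 4 (adjusted p = 0.0363). Cdh2, which encodes N-cadherin of neural and mesenchymal cells (chromosome 18, 16588877 to 16809246, minus strand), held 0.201, 0.150, 0.300 and 0.136 FPKM in WT and 1.30, 1.06, 0.437 and 0.210 in Stat3 ko. In Chi3l1 ko it held 0.180, 0.701, 0.174 and 0.167. The fit without a filter gave 0.50 ± 0.20 (SE) against WT (limma adjusted p = 0.176), on 21 to 175 counts per library.

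Fn1 encodes fibronectin, a matrix glycoprotein (ENSMUSG00000026193, chromosome 1, 71585520 to 71653200, minus strand). It stood at 19.8, 12.3, 43.9 and 11.6 FPKM in WT, 38.3, 20.2, 24.6 and 29.9 in Stat3 ko and 11.1, 22.05, 13.2 and 10.9 in Chi3l1 ko. WT 3 was the highest of all 12, so the groups overlapped. The change of Stat3 ko against WT was 0.52 ± 0.38 (SE; limma adjusted p = 0.356).

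By FPKM, which is scaled to gene length, Cdh1 stood first in WT (155 ± 22.2, SD, n = 4), then Vim (55.4 ± 11.7), Fn1 (21.9 ± 15.1), Snai1 (4.59 ± 1.35), Snai2 (2.41 ± 0.602), Twist1 (2.33 ± 0.922), Zeb2 (1.38 ± 0.362), Zeb1 (0.812 ± 0.266), Cdh2 (0.197 ± 0.0745) and Twist2 (0.165 ± 0.104). Chi3l1 ko had the same order. In Stat3 ko Vim stood first (149 ± 73.2) and Cdh1 second (103 ± 56.5), with overlapping ranges. The ranges of neighbours overlapped in WT for Vim and Fn1, for Snai2, Twist1, Zeb2 and Zeb1 in turn, and for Cdh2 and Twist2. Snai1, at rank 4 in WT and Chi3l1 ko, held rank 8 in Stat3 ko, below Zeb1, though its range there overlapped that of Zeb1.

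The authors' deposited table for Stat3 ko against WT, which lists genes with an unadjusted p under 0.05, held 5 of the 10 genes. It held 6155 of all 54532 genes. The authors' deposited table gave log2 fold changes of 2.00 for Zeb1 (adjusted p = 3.09e-05), 1.43 for Vim (0.000786), 1.41 for Zeb2 (0.00266), 1.93 for Cdh2 (0.00858) and -0.83 for Snai1 (0.0569). Twist1 and Cdh1 were not among its listed genes, and the reason is not given. On recovered counts DESeq2 gave no p for Twist1, while edgeR gave unadjusted p = 0.0102 for Twist1 and 0.109 for Cdh1. The authors' deposited table for Chi3l1 ko against WT listed 0 of the 10, and 824 of all 54532 genes.

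Chi3l1 ko glands showed no called change in any of the genes. Of the 8 tested, 0 were called against WT, where 0.00733% of all genes were called, which was Chil1 alone. Over all genes 222 had an unadjusted limma p under 0.05, and edgeR and DESeq2 on recovered counts called 1 and 8 genes and 0 of the 8. The fit without a filter, which called 0.00320% of its genes, called 0 of the 10. Against WT 0 of the 8 lay wholly above or wholly below, where 1.12% and 1.36% of all tested genes did. Fold changes of the 8 ran from -0.43 for Fn1 to 0.10 for Vim on the log2 scale, each with a limma adjusted p of 0.9998. The 95% intervals were -0.42 to 0.42 for Snai1, -0.72 to 0.66 for Snai2, -0.44 to 0.59 for Zeb2 and -0.53 to 0.67 for Zeb1. They were -0.58 to 0.78 for Vim, -0.73 to 0.79 for Cdh1, -1.16 to 0.82 for Twist1 and -1.27 to 0.40 for Fn1. Changes inside these intervals remain possible, on a log2(FPKM + 1) scale that understates changes of low genes. Chi3l1 ko 2 held the highest level of its group for Vim, Fn1, Zeb1, Zeb2, Twist1, Twist2 and Cdh2.

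Set against Chi3l1 ko instead, Stat3 ko showed the same 3 calls. Vim differed by 1.23 ± 0.31 (SE; limma adjusted p = 0.0267), Zeb1 by 1.11 ± 0.27 (0.0252) and Zeb2 by 0.84 ± 0.23 (0.0381) on the log2 scale, and 13.2% of all tested genes were called, 5.19% as rises. Among all calls 39.4% were rises, and 51.1% with edgeR on recovered counts. Both comparisons share the Stat3 ko libraries and are not independent, and the filter limit of Zeb1 holds in both. Twist1 (1.39 ± 0.45, SE; limma adjusted p = 0.0636), Snai1 (-0.63 ± 0.19, 0.0538), Fn1 (0.95 ± 0.38, 0.115) and Cdh1 (-0.80 ± 0.34, 0.140) did not pass. Without Chi3l1 ko 1, 3 or 4 in turn, 0 of the 8 were called, beside 4.48%, 5.67% and 5.03% of all tested genes. The fit without a filter and that of the compared groups alone also called 0, beside 3.58% and 3.70% of their genes. Without Stat3 ko 2, 1 was called, beside 7.87% of all tested genes. Without Chi3l1 ko 2 there were 4, beside 14.2%, Twist1 being added (1.62, limma adjusted p = 0.0471). With edgeR, which called 14.2% of all genes, Zeb1 differed by 1.82 and Twist1 was called (2.12, adjusted p = 0.0439).

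**Figure D2:**
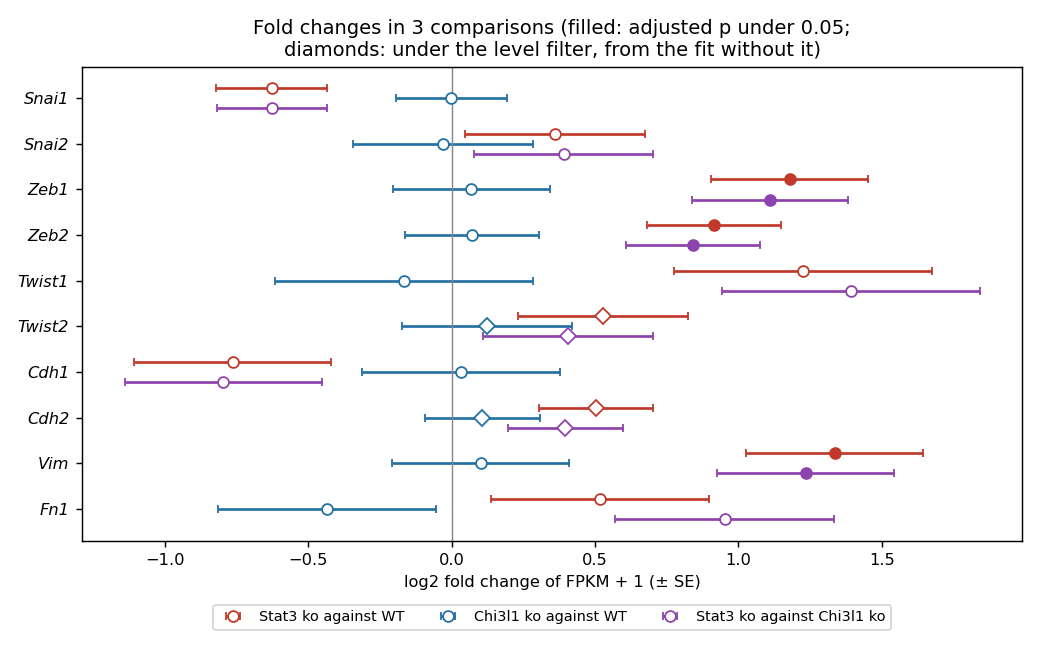
Log2 fold change of FPKM + 1 (± SE, limma) of the 10 genes in 3 comparisons, filled where the adjusted p is under 0.05. Vim, Zeb1 and Zeb2 are filled in both comparisons that hold Stat3 ko, between 0.84 and 1.34, while every change of Chi3l1 ko against WT lies between -0.43 and 0.12.

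Counting genes whose FPKM did not overlap at all gave a similar picture. Against WT, Vim, Zeb1, Zeb2 and Twist1 were higher in all Stat3 ko libraries, where 9.67% of all tested genes were higher without overlap. Zeb1 carries the filter limit given above. Against Chi3l1 ko, Vim, Zeb2 and Twist1 were higher (6.85% of all tested genes) and Snai1 was lower (10.2%).

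Beyond the 10 genes, regulators that keep cells epithelial were tested as a list. Of 14, 7 fell and 0 rose against WT, where 8.39% of all tested genes fell and 5.61% rose (median log2 fold change -0.92, against -0.02 over all tested genes). The estimates of 2 were above 0 and did not pass, Foxa1 (1.94, limma adjusted p = 0.0567) and Klf4 (0.62, 0.0886), which were named here after their values were seen. Elf5, the ETS factor of alveolar luminal cells, fell by 1.77 (± 0.23 SE; limma adjusted p = 0.00119), the grainyhead factors Grhl3 by 1.12 (0.00737) and Grhl2 by 1.02 (0.0169), and the ETS factor Elf3 by 1.01 (0.0190). Grhl2 stood at 8.63 to 10.8 FPKM in WT and 2.54 to 7.11 in Stat3 ko, and Elf5 at 83.3 to 103 and 17.6 to 40.1, so neither overlapped. Grhl3 passed the level filter mainly through WT, since 3 WT libraries, 1 Chi3l1 ko library and 0 Stat3 ko libraries reached 1 FPKM, so that its passing already required a difference. Of 20 epithelial junction genes, 7 fell and 0 rose, beside the same 8.39% and 5.61% of all genes, and all 20 estimates were below 0 (median -0.72). F11r, junctional adhesion molecule A, fell by 0.67 (limma adjusted p = 0.0187), St14, the membrane protease matriptase, by 1.26 (0.0206), the small GTPase gene Rab25 by 1.17 (0.0298) and the tight junction gene Marveld3 by 1.02 (0.0310).

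The counts of the mesenchymal, cadherin and TGF-beta lists are small, and are to be read against the 5.61% of all tested genes that rose and the 8.39% that fell. Of 8 tested among 10 other EMT transcription factors, 1 rose and 0 fell: Prrx1, a mesenchymal homeobox factor, by 1.21 ± 0.36 (SE; limma adjusted p = 0.0471; list median 0.27). Of 17 tested among 18 mesenchymal and matrix genes, 0 rose and 2 fell, the integrin subunits Itgav (-0.63, adjusted p = 0.0163) and Itgb1 (-0.41, 0.0447), with a median of 0.13. Of 4 tested among 6 other cadherins, 1 fell, Cdh3 or P-cadherin (-1.07, limma adjusted p = 0.0328). Of 18 TGF-beta signalling genes, 3 fell and 1 rose (median -0.14). The ligands Tgfb3 and Tgfb2 fell by 1.25 (limma adjusted p = 0.00390) and 1.07 (0.0186), the pseudoreceptor gene Bambi fell by 0.43 (0.0247) and the ligand Tgfb1 rose by 0.55 (0.0363).

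List calls and calls over all genes moved together when single libraries were left out. Over all tested genes 14.0% were called, but 4.19% without WT 1, 5.61% without WT 4, 6.68% without WT 3, 8.06% without Stat3 ko 2, 9.36% without WT 2, 17.5% without Stat3 ko 3 and 23.8% without Stat3 ko 4. Of the 22 calls in the lists above, 19 were lost without WT 1 (limma adjusted p from 0.0535 to 0.126), 18 without WT 4, 14 without Stat3 ko 2, 13 without WT 3 and 9 without WT 2. Elf5 and Tgfb3 kept theirs without any single library, as did Grhl3, with the filter limit given above. No junction gene was called without WT 1 or WT 4 (0 of 20 each), 1 was without Stat3 ko 2, and 2 were without WT 2 or WT 3, but 13 and 14 were without Stat3 ko 3 or 4. Without Stat3 ko 4, where 23.8% of all genes were called, 4 of the 8 other EMT factors and 9 of the 18 TGF-beta genes were. Of the 14 regulators, 2 were called without WT 1 or WT 4 and 4 without WT 3.

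**Figure D3:**
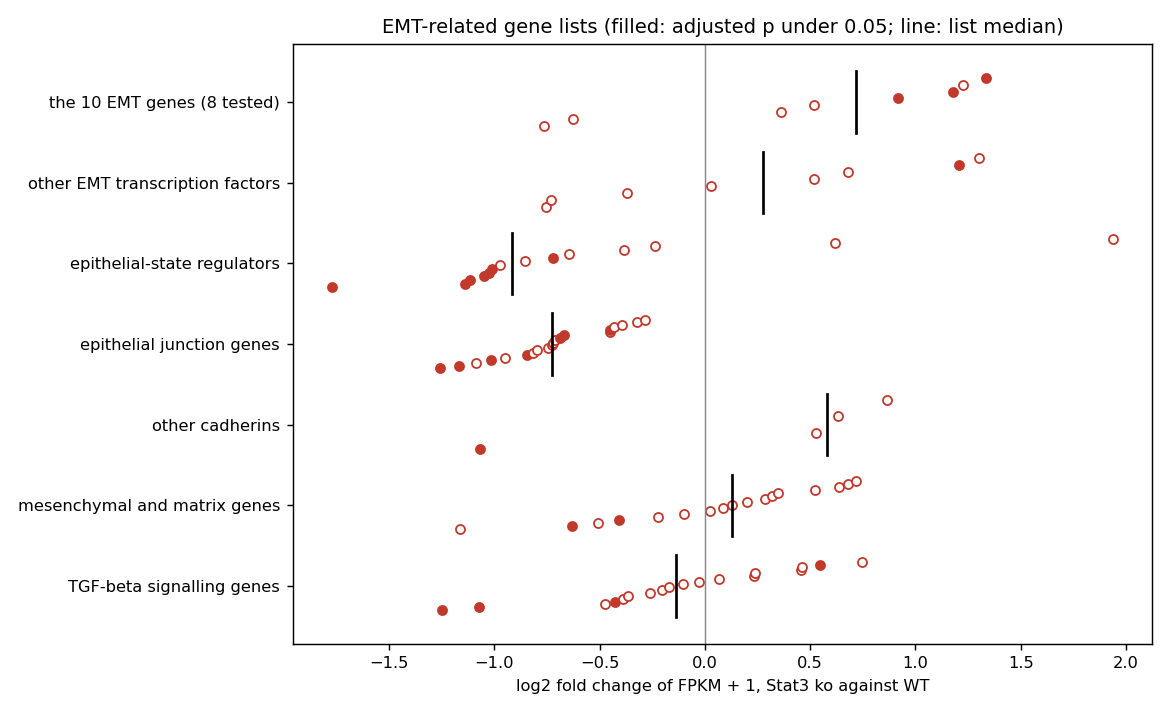
Log2 fold change of FPKM + 1 for Stat3 ko against WT, 1 point per tested gene in 7 lists, filled where the limma adjusted p is under 0.05, with a line at each list's median. All 20 junction genes lie below 0 and the regulators centre on -0.92, while the mesenchymal and matrix genes spread around 0.13.

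Against Chi3l1 ko, where 1091 of all 13643 tested genes fell and 708 rose, the same lists gave 7 falls and 2 rises among the regulators, led by Elf5 (-1.70, limma adjusted p = 0.00169), the Kruppel-like factor gene Klf4 (1.03, 0.0176), Grhl2 (-0.98, 0.0200) and the luminal factor gene Gata3 (-0.87, 0.0209). The other rise was Foxa1 (2.18, 0.0407), which reached 1 FPKM in 3 Stat3 ko, 1 WT and 0 Chi3l1 ko libraries and so passed the filter mainly through the group where it is high. The junction genes gave 5 falls, again led by F11r (-0.70, limma adjusted p = 0.0151) and St14 (-1.26, 0.0202). The other EMT factors gave 1 fall, Sox9 (-0.97, 0.0244), and 1 rise, Tcf4 (0.57, 0.0417). Cdh11, the cadherin of mesenchymal cells, rose by 0.85 (limma adjusted p = 0.0211) and Cdh3 fell by 1.03 (0.0382). The matrix list gave 3 falls, Itgav (-0.75, 0.00796), Itgb1 (-0.49, 0.0250) and the matrix gene Tnc (-1.46, 0.0406), and the TGF-beta list gave 3 falls and 2 rises. Of these 26 calls, 22 were lost without Chi3l1 ko 1, 20 without Chi3l1 ko 4, 19 without Chi3l1 ko 3 and 13 without Stat3 ko 2, where calls over all tested genes dropped from 13.2% to 4.48%, 5.03%, 5.67% and 7.87%. For Chi3l1 ko against WT each of these lists had 0 calls, with medians of -0.05 for the regulators and -0.04 for the junction genes.

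Among cell type marker lists, the adipocyte and leukocyte means were higher in every Stat3 ko library than in WT, and the other lists overlapped. The part of these lists in the Stat3 ko result was not tested. Levels are given as the mean log2(FPKM + 1) over a list in each library. General epithelial markers (6 genes) held 7.14, 6.85, 6.98 and 7.34 in WT and 6.18, 5.81, 6.96 and 7.14 in Stat3 ko, so the low pair was Stat3 ko 1 and 2, the pair with low Cdh1. Fibroblast markers (9 genes) held 4.23, 4.40, 5.26 and 3.77 in WT and 6.21, 4.51, 4.80 and 5.35 in Stat3 ko, with overlap. Endothelial markers (6 genes) ran from 1.93 to 2.49 in WT and from 2.42 to 4.17 in Stat3 ko. Leukocyte markers (10 genes) ran from 1.84 to 2.39 and from 2.47 to 4.75, and adipocyte markers (6 genes) from 2.37 to 4.08 and from 4.64 to 8.93, both without overlap. Pericyte markers (4 genes) ran from 2.36 to 2.89 and from 2.76 to 4.11, and skeletal muscle markers (5 genes) from 1.44 to 8.37 and from 2.80 to 10.28. Basal and myoepithelial markers (7 genes) ran from 2.58 to 3.50 and from 2.20 to 4.80.

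As summed FPKM, adipocyte markers spanned 35.8 to 131 in WT and 223 to 4182 in Stat3 ko, leukocyte markers 64.6 to 96.6 and 146 to 403, endothelial markers 19.4 to 32.0 and 30.1 to 126, and fibroblast markers 245 to 776 and 299 to 1154. The leukocyte marker Ms4a1 was at 0 in 3 libraries, and no marker of the other cell type lists was at 0 in any library. Beside 5.61% of all tested genes that rose, the calls against WT were 3 of 6 adipocyte genes (Fabp4 and Plin1 led, at 3.31 and 3.28, limma adjusted p = 0.0373 and 0.0384), 5 of 8 tested leukocyte genes (Itgam, 0.59, adjusted p = 0.0315, and Cd68, 0.64, adjusted p = 0.0320), and 1 each of the fibroblast (Pdgfra, 1.19, adjusted p = 0.0345), pericyte (Pdgfrb, 0.92, adjusted p = 0.0198) and endothelial lists (Pecam1, 1.13, adjusted p = 0.0393). The protease inhibitor gene Spint1 was the 1 epithelial marker that fell (-1.16, adjusted p = 0.0256), and 0 basal and 0 muscle genes were called. All 12 of these calls were lost without WT 1 and all 12 without WT 4. All lists had 0 calls for Chi3l1 ko against WT.

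In Stat3 ko 3 and 4 the epithelial mean (6.96 and 7.14) and Cdh1 (138 and 163 FPKM) were within the WT range, and Vim (114 and 108 FPKM), Zeb1 (2.51 and 1.64), Zeb2 (2.49 and 2.93) and Twist1 (3.80 and 5.20) were above every WT library. In Stat3 ko 3 the fibroblast mean (4.80) was within the WT range, while the adipocyte (5.45), leukocyte (4.06) and endothelial (2.63) means were above it. For Stat3 ko 4, the fibroblast (5.35), adipocyte (4.64) and leukocyte (2.47) means were also above the highest WT library (5.26, 4.08 and 2.39), and the endothelial mean (2.42) was within the WT range. Stat3 ko 1, with the highest Vim, Zeb1, Zeb2, Twist1, Twist2 and Cdh2, had the highest adipocyte, fibroblast, endothelial and pericyte means of all 12 libraries. Chi3l1 ko 2 was the highest of its group for Vim and the ZEB genes. It had its group's highest adipocyte (5.89), fibroblast (4.78), endothelial (2.55), pericyte (3.12), basal (3.57) and muscle (10.05) means.

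**Figure D4:**
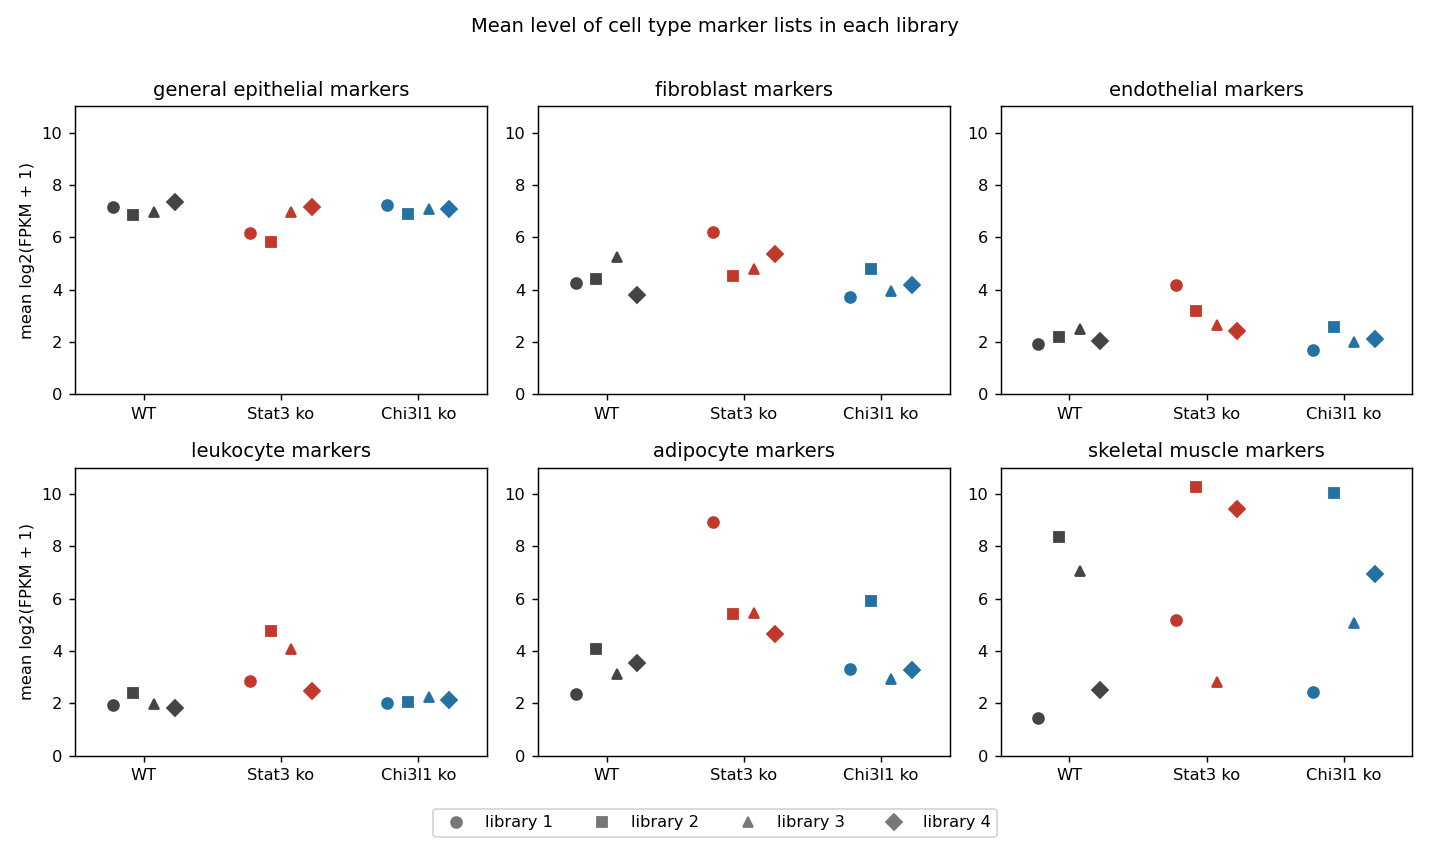
Mean log2(FPKM + 1) of 6 cell type marker lists in each library, 4 libraries per group. Adipocyte and leukocyte means are higher in each Stat3 ko library than in every WT library, while the epithelial mean is low in Stat3 ko 1 (6.18) and 2 (5.81) only.

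Taking each gene relative to a marker list of its own library left no difference past a test. This comparison was chosen after the values were seen, and 11 exact two-sided permutation tests of 4 against 4 libraries were made. Log2(FPKM + 1) of Cdh1 minus the general epithelial mean was 0.20 ± 0.03 in the WT libraries and -0.01 ± 0.50 in those of Stat3 ko (SD, n = 4; exact p = 0.686). Vim minus the fibroblast mean came to 1.38 ± 0.33 for WT and 1.91 ± 0.41 for Stat3 ko (SD, n = 4; exact p = 0.114), and minus the endothelial mean it was 0.39 higher in Stat3 ko (exact p = 0.0857), but minus the leukocyte mean it was lower by a difference of -0.17 (exact p = 0.857). The Zeb1 differences were 0.38, 0.24 and -0.33 against the fibroblast, endothelial and leukocyte means, and the Zeb2 differences 0.12, -0.03 and -0.59. Snai1 minus the epithelial mean differed by -0.08 (exact p = 0.886). Adjusted over the 11, p ran from 0.629 to 0.914, and the smallest exact p that 4 against 4 allows is 0.0286 before adjustment. A single test at that smallest p could not pass adjustment over the 11. The adipocyte and pericyte lists were not among the references, nor was Twist1 among the genes. The log2(FPKM + 1) scale also understates changes of low genes such as Zeb1 and Zeb2, so these differences are not plain log ratios. On this scale and with spreads of this size, such tests do not show that the relative levels were equal.

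The genes most like each member over the 12 libraries, by Pearson's r of log2(FPKM + 1), are given as a description without a p, since the libraries share group and tissue makeup. Vim was most like Mxra7 (0.984), Snx24 (0.984) and Prrx1 (0.980), and 0.964, 0.961 and 0.954 without the 2 libraries farthest from its median, Stat3 ko 1 and 2. Zeb1 was most like Gypc (0.983), Cxcl12 (0.981) and Abcc5 (0.978), and Zeb2 was most like Fcgrt (0.984), Nrp1 (0.982) and Zfp423 (0.981). Twist1 was most like Cd209a (0.982), Tbc1d16 (0.981) and Cd302 (0.980). Cdh1 was most like Fblim1 (0.992), Ptprk (0.988) and Stk39 (0.987), which dropped to 0.882, 0.902 and 0.831 without Stat3 ko 1 and 2. Fn1 was most like the collagen genes Col14a1 (0.952) and Col5a1 (0.930), and Fstl1 (0.926). Snai1 was most like Plekhg1 (0.922), Tulp4 (0.907) and Mbd5 (0.907), and Snai2 was most like Pcsk6 (0.957), Fmr1 (0.954) and Samd5 (0.954).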

How the data were processed

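RNA sequencing libraries of hyperplastic mammary glands were analysed, 4 per genotype. The submitters' processing notes list the tools Trimmomatic, STAR, HTSeq, edgeR and limma, and as builds both GRCm38 and mm10; versions and roles are not stated. The authors deposited FPKM for every gene in all 12 libraries, with gene length in bases and coordinates, per the file headers. The authors' deposited comparison tables hold raw counts, log2 fold changes and unadjusted and adjusted p-values. FPKM times gene length gave whole reads for 100% of values within 0.001 read, and of 55832 deposited counts compared, 0 differed. Gene names turned into dates (27) were restored from their Ensembl identifiers.

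limma 3.58.1 with a trend was fitted in R 4.3.3 to log2(FPKM + 1), a scale that understates changes of low genes, for the 3 group means over genes reaching 1 FPKM in 4 or more of 12 libraries. Tests were two-sided, with Benjamini-Hochberg adjustment and a threshold of 0.05. The labels do not say whether samples within a group are separate animals. The p-values therefore measure only the spread among them, which may be technical. The genes named are the 10 members, the targeted genes, up to 4 called genes of each EMT list with the lowest adjusted p, up to 2 of each cell type list, and the 3 genes most like each tested member. Krt8, Ms4a1, Foxa1, and Klf4 for the comparison with WT, were named after their values were seen. The members and lists were chosen with earlier results of these data known. All 10 members had the same coordinates in GENCODE vM21.

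Alternatives were edgeR 4.0.16 or DESeq2 1.42.0 on recovered counts, a 0.1 pseudocount, quantile normalization, scaling by median of ratios, array weights, a fit of the compared groups only, genes averaging 5 FPKM or more, no filter, and omission of each library or of the 3 with over 2% mitochondrial counts. The fit was also run on simulated data, and no result of that run is given or used here. Tables and exact tests used scipy 1.17.1, numpy 2.4.6 and pandas 2.3.3 under Python 3.11.15; matplotlib 3.10.9 drew the figures.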

Additional observations from a re-analysis of the deposited data

Results flagged for a closer look

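In 6 of 30 groups of 4 libraries (10 genes in 3 genotypes), 1 library stood apart by more than 0.829 of the group's range. That mark flags about 1 in 20 groups of independent, normally distributed values. Here the 10 genes share their libraries and FPKM was taken on a linear scale, so that rate does not apply to the 30 groups. In Stat3 ko the library that stood apart was library 1 for Vim (259 FPKM, next 117), Zeb2 (6.49, next 2.93), Twist1 (20.7, next 5.20) and Twist2 (2.72, next 0.314). In Chi3l1 ko it was library 2 for Vim (97.3 FPKM, next 52.6) and Cdh2 (0.701, next 0.180). These 2 libraries also held the highest adipocyte marker mean of their groups, 8.93 and 5.89 on the log2(FPKM + 1) scale, and 4.79% and 2.22% of mitochondrial counts. Their part in the levels was not tested.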

How the results depend on the processing

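Of the 8 tested genes, 3 were called in Stat3 ko against WT and 3 against Chi3l1 ko. With only genes of a mean of at least 5 FPKM, Vim, Cdh1 and Fn1 alone of the 8 were tested, and 1 and 1 were called. Beside them 16.0% and 14.8% of all genes tested there were called. With only the compared groups 1 and 0 were called, beside 3.71% and 3.70% of all tested genes. Without a filter 0 were called against Chi3l1 ko, beside 3.58%. Leaving out single libraries gave 0 to 4 in both, beside 4.19% to 23.8% of all tested genes against WT and 4.48% to 21.2% against Chi3l1 ko. Over all genes, calls of Stat3 ko against WT numbered 1911, but 1149 without a filter, 506 with only the compared groups, 3633 with DESeq2 and 571 to 3252 without single libraries. Against Chi3l1 ko they numbered 1799, but 1119, 505, 3261 and 611 to 2890. edgeR called 2359 and 1937. Chi3l1 ko against WT had 1 call, 2 with array weights and 8 with DESeq2.

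Signs turned for changes near 0 of Chi3l1 ko against WT: Snai1 to 0.0048 with a pseudocount of 0.1, Zeb1 to -0.094 and Vim to -0.11 with array weights, and Zeb1 to -0.15, Zeb2 to -0.045 and Vim to -0.14 without the libraries over 2% mitochondrial counts. Without single libraries these ran from -0.13 to 0.11 for Snai1, from -0.16 to 0.055 for Snai2, from -0.15 to 0.18 for Zeb1, from -0.045 to 0.14 for Zeb2, from -0.034 to 0.11 for Cdh1 and from -0.14 to 0.23 for Vim. The cause of these differences was not tested. Zeb1 kept its direction and was called in 14 of 17 alternatives against WT, Zeb2 in 13 of 17 and Vim in 15 of 18. Over all genes these alternatives called from 3.67% (no filter) to 26.6% (DESeq2). They share libraries, and most share the level filter, so they are not independent. Zeb1 carries the filter limit given above in all that use that filter. DESeq2 gave neither a p nor an adjusted p for Twist1. Twist2 and Cdh2 missed the FPKM filter, at 4 to 175 counts per library, and log2(FPKM + 1) shrinks their changes. No paired analysis was possible because the labels give no replicate numbers that the groups share.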
